A study of Mus musculus with 4 samples.

Results

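The nuclear genes of the mitochondrial respiratory chain were followed through 4 bulk RNA-seq libraries of mouse telencephalic tissue at embryonic day 13 (E13). A gene was included when it was annotated as protein coding and its symbol belonged to the families Nduf, Sdh, Uqcr, Cyc1, Cycs, Cox4 to Cox8 or Atp5, with no expression value used. Of the 27293 genes in the table, 90 met this rule. They were 7 core subunits, 29 accessory subunits and 9 assembly factors of complex I, 4 subunits of complex II, 9 of complex III and cytochrome c itself. A further 15 genes were grouped with complex IV (Ndufa4 among them, which bears a complex I name but is a complex IV subunit) and 16 with complex V. Genes in these groups need not all be structural subunits.

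The respiratory chain sits in the inner mitochondrial membrane. Complexes I and II take electrons from NADH and succinate, complex III passes them to cytochrome c, complex IV hands them to oxygen, and complex V, the ATP synthase, uses the resulting proton gradient to make ATP. A few core subunits are encoded by mitochondrial DNA, while all others come from the nucleus and are imported, and in the embryonic cortex the shift from dividing progenitors to neurons is known to go with a greater use of this pathway.

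All embryos were of the C57BL/6 strain. The libraries named WT 1 and WT 2 were labelled wild type, and those named cKO 1 and cKO 2 came from STINGf/f;Nestin-Cre embryos (STINGcKO), in which both STING alleles are floxed and Cre recombinase, driven by the Nestin promoter, acts chiefly in neural progenitors and is inherited by their descendants, while other cells of the tissue, such as blood and microglia, are not its target. The genotype labels do not say whether the WT embryos carried a floxed allele or Cre. The methods of the study name the tissue as cerebral cortex, while the legend of its RNA-seq figure calls it forebrain. Nothing in the labels says whether a library was made from 1 embryo or from several, so p-values measure the spread between these libraries, which may be partly technical. The study compared STINGcKO with WT to find genes whose expression differs when STING is deleted in the neural lineage.

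Counted reads summed to 17209654 (WT 1), 18533391 (WT 2), 18237989 (cKO 1) and 18091688 (cKO 2). Levels are given as CPM, that is counts scaled to the total of each library, and 3 counts, the limit that a count of 0 allows, stand for 0.162 to 0.174 CPM. The STING gene, listed as Tmem173, had 20 counts (WT 1), 19 (WT 2), 18 (cKO 1) and 22 (cKO 2). These counts cover the whole gene, not the floxed part, so they do not check the deletion.

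Each library stood apart from the others in some way. WT 1 had the highest summed level of choroid plexus epithelium markers, at 87.9 CPM beside 18.9 (WT 2), 17.3 (cKO 1) and 17.5 (cKO 2), over the 12 of 14 markers in the table of all libraries, with Otx2 the most abundant by counts. Ttr, the defining choroid plexus transcript, had 5071 counts in WT 1 and 23 in cKO 1. The 13 markers of meninges and mesenchyme, led by Col3a1, summed to 332 CPM (WT 1), 73.3 (WT 2), 96.7 (cKO 1) and 53.3 (cKO 2). WT 2 had no count on 4 genes of the Y chromosome, Uty, Kdm5d, Ddx3y and Eif2s3y. On each of them cKO 2 had fewer counts than WT 1 and cKO 1, with 99 beside 256 and 268 for Uty and 260 beside 427 and 465 for Ddx3y. The part of these counts in the results was not tested. The title of WT 2 ends in "nes" where that of WT 1 ends in "wt", which the labels do not explain, so the WT libraries may differ in more than replicate. Markers of cortical neurons, led by Tubb3, summed to 5511, 6353, 6048 and 5331 CPM in the order WT 1, WT 2, cKO 1, cKO 2, so neuronal markers were present in every library. In cKO 1 the markers of ventral telencephalon, led by Dlx1, were lowest, at 580.3 CPM beside 928 (WT 1), 879 (WT 2) and 913 (cKO 2). cKO 2 stood apart in the respiratory chain genes and well beyond them, in ribosomal protein genes, mitochondrially encoded genes and the relation of levels to base composition, as described with the members.

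The start sites of many respiratory chain genes are known to carry binding sites of nuclear respiratory factor 1 (NRF1), an activator of nuclear genes for mitochondrial proteins. Promoter windows from RefSeq (build GRCm38.p6), 250 bases before to 50 bases after the start site, were found for 76 of the 90 genes. The letters GCATGCGC, or GCGCATGC on the other strand, stood in 13 of the 76 windows (17.1%), against 3.61% of the 17492 windows of all protein-coding genes. The stretches of 6 of the 13 are shown because they cover complexes I, IV and V, cytochrome c and an assembly factor, and because all 6 lie outside the gene bodies given in the deposited table. Each is written 5′ to 3′ on the strand of its gene, with the searched letters of either strand in capitals (the forms overlap within a palindrome), at chr17:56717674-56717741 (plus strand) for Ndufa11, chr15:82354337-82354404 (minus) for Ndufa6, chr4:24897942-24898009 (plus) for Ndufaf4, chr6:50566592-50566659 (minus) for Cycs, chr5:115349081-115349148 (minus) for Cox6a1 and chr9:44920945-44920992 (minus) for Atp5l.
Ndufa11: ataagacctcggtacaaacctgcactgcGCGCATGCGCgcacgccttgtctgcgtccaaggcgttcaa
Ndufa6: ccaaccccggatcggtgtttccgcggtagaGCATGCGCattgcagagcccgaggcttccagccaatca
Ndufaf4: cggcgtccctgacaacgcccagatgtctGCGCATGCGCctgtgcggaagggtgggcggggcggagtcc
Cycs: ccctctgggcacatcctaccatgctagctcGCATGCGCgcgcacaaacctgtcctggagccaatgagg
Cox6a1: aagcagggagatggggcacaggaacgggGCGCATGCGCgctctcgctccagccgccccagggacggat
Atp5l: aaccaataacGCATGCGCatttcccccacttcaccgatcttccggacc

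The last searched letter lay 50 bases before the start site in Ndufa11, 75 in Ndufa6, 103 in Ndufaf4, 52 in Cycs, 152 in Cox6a1 and 232 in Atp5l. The core of the ETS family sites, CCGGAAG, to which GABP binds, stood in 22.4% of the 76 windows and in 11.9% of all protein-coding windows, each motif being searched on both strands. For the YY1 core ATGGCGG the shares were 14.5% and 5.44%, for CCAAT they were 46.1% and 39.2%, for the GC box GGGCGG 46.1% and 46.3%, and for TATAAA 6.58% and 13.3%. Of the 76 windows, 13 held the NRF1, 17 the ETS and 11 the YY1 letters, and 5 held TATAAA. In these counts the shares for NRF1, ETS and YY1 were above those of all protein-coding windows. The share for TATAAA was below, and that for the GC box was about the same. These differences were not tested. A match of letters is a description of the sequence and not evidence of binding in this tissue.

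Levels between genes were compared per length, as the mean CPM of the 4 libraries per kilobase of summed exon length. The median over the 90 genes was 37.4 CPM per kilobase. The catalytic head of the ATP synthase led, with Atp5b, the beta subunit, at 282 CPM per kilobase and Atp5a1, the alpha subunit, at 246. Cox6a1 and Cox8a, small subunits of complex IV, followed at 227 and 217 CPM per kilobase. Assembly factors of complex I, which help to build the complex without staying in it, lay between 6.20 (Ndufaf4) and 12.7 CPM per kilobase (Ndufaf3).

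**Figure D1:**
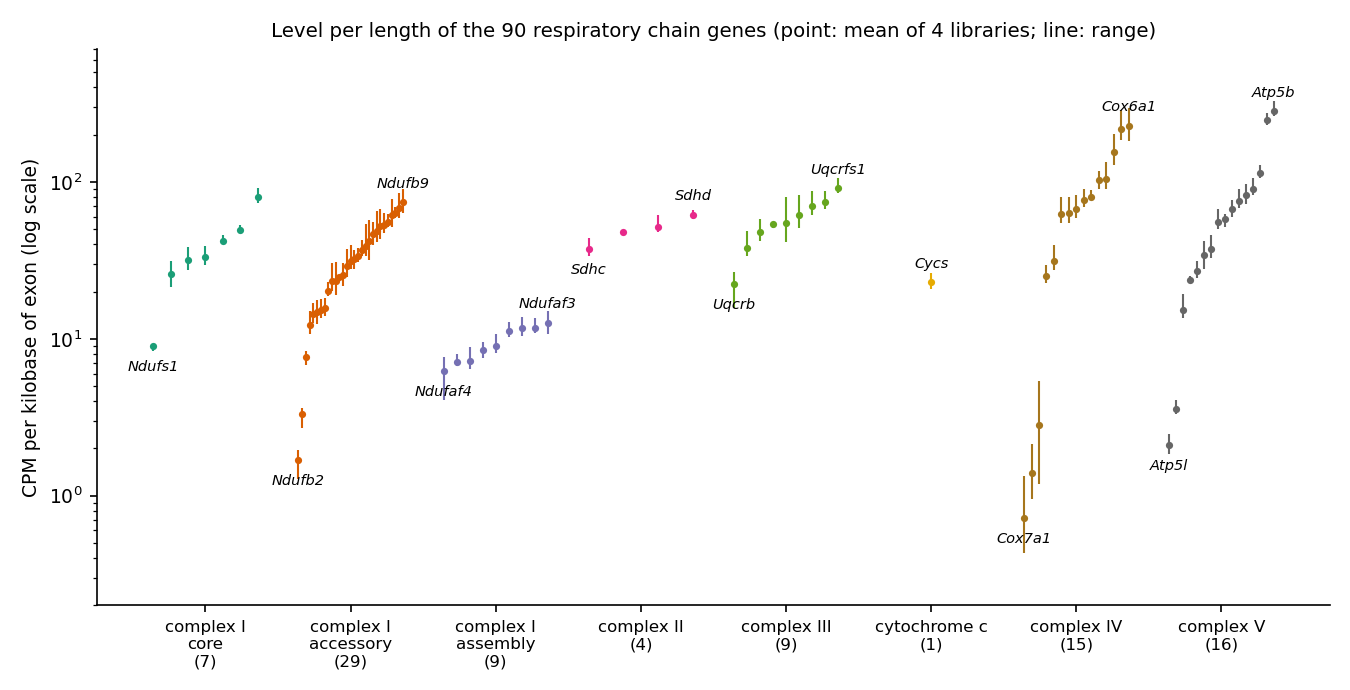
Level of each of the 90 genes in CPM per kilobase of summed exon length (vertical axis, log scale), sorted within its complex; each point is the mean of the 4 libraries and each line runs from the lowest to the highest library. The highest gene is Atp5b at 282 and the lowest is Cox7a1 at 0.724 CPM per kilobase.

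Within complex I, the accessory subunit Ndufb2 was lowest at 1.69 CPM per kilobase. In complex II, Sdhd, a membrane anchor, had 61.7 CPM per kilobase and Sdhc, the other anchor, 37.3. In complex III, the Rieske iron-sulfur protein Uqcrfs1 had 91.1 and Uqcrb 22.2 CPM per kilobase. Complex V ended with Atp5l, a membrane subunit, at 2.10 CPM per kilobase. With the median length of a gene's coding transcripts in place of the summed exon length, the highest genes became Sdhc in complex II and Uqcrc1 in complex III, at 149 and 373 CPM per kilobase, and the lowest became Sdhd and Atp5s, at 61.7 and 10.2. The assembly factors then ran from 8.15 (Ndufaf6) to 38.7 CPM per kilobase (Ndufaf2), while Ndufb2, Uqcrb, Cox6a1, Cox7a1 and Atp5b kept their places. Reads that also align to a processed pseudogene or another copy may be missing from such values, and how they were counted was not stated.

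In complex IV, which has nuclear subunits encoded by several genes for different tissues, the broadly expressed isoforms prevailed. Cox4i1 had 76.2 CPM per kilobase and Cox4i2, known from lung and from low oxygen, 1.40. The ubiquitous Cox6b1 had 156 CPM per kilobase and Cox6b2, known from testis, 2.81. Cox7a2 and Cox7a2l, the latter a factor that joins complexes III and IV, had 67.6 and 102 CPM per kilobase, against 0.724 for the heart and skeletal muscle isoform Cox7a1. The markers of skeletal muscle summed to 2.50, 2.10, 0.932 and 1.77 CPM over the libraries in the order WT 1, WT 2, cKO 1, cKO 2. Cox7b had 62.8 CPM per kilobase. The genes Cox6a2, Cox7b2, Cox8b and Cox8c were not analysed here. The proteolipid ring of the ATP synthase is encoded by 3 genes for the same mature protein. Of these, Atp5g2 had 75.6, Atp5g3 67.3 and Atp5g1 15.3 CPM per kilobase. Within each library Atp5g2 lay above Atp5g3, although their ranges over the libraries overlapped. With coding transcript lengths the order of the 2 turned, with 185 CPM per kilobase for Atp5g2 and 204 for Atp5g3.

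No respiratory chain gene passed the test between STINGcKO and WT. The study called genes that differed by 2-fold or more at an unadjusted p of 0.05 or less. With these thresholds in edgeR's quasi-likelihood test, 0 of the 89 genes tested were called, where 0.669% of all 16145 genes tested were called lower and 0.142% higher. No member had an unadjusted p under 0.05 in edgeR either (1.23% of all genes tested), and with Benjamini-Hochberg adjustment over all genes neither a member nor any other gene passed (0%). DESeq2 also called 0 members at each of these thresholds. The smallest p among the members was 0.120 from edgeR, for Cox8a, with an adjusted p of 0.9999. Of the 89 members, 88 had a log2 fold change between −0.5 and 0.5, and the median standard error of the 89 values was 0.19.

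Small differences nonetheless leaned one way. A log2 fold change above 0 was found for 79 of the 89 members (88.8%), against 47.9% of all genes tested, and the median was 0.15, against −0.01 over all genes tested. The groups did not overlap for 12 members, of which 11 (Atp5h, Atp5j2, Cox7b, Cycs, Ndufa12, Ndufab1, Ndufaf5, Ndufb3, Ndufb4, Ndufb7 and Sdha) had both cKO libraries above both WT libraries and 1 (Atp5j) had both below. Over all genes tested, 11.0% lay above in this sense and 10.8% below, so the members' 11 of 89 are close to the background. Exact permutation of 2 against 2 libraries cannot give a two-sided p below 0.333.

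The lean rested on 1 library. By normalized level, cKO 2 was the highest of the 4 libraries for 76 of the 89 members (85.4%), where this held for 33.6% of all genes tested. Expressed as the log2 deviation from a gene's mean over the 4 libraries, the median member stood at −0.08 (WT 1), −0.04 (WT 2), −0.12 (cKO 1) and 0.26 (cKO 2). The median member was 26.8% higher in cKO 2 than in the mean of the other 3 libraries, while the highest and lowest of these 3 differed by a median factor of 1.12. cKO 1, of the same genotype, was the lowest library for 40 of the 89 members, more than any other. Of all 16145 genes tested, 4409 were lowest in cKO 1 and 5383 in cKO 2.

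**Figure D2:**
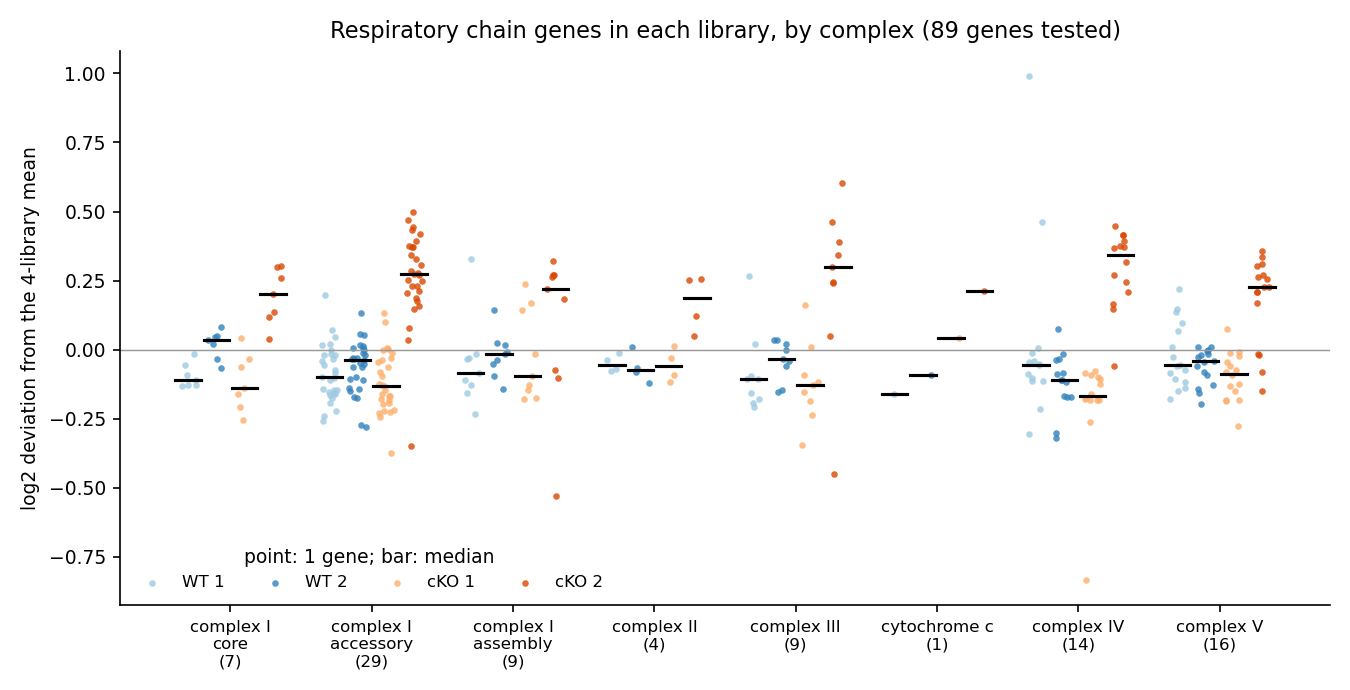
Log2 deviation of each of the 89 tested genes from its own mean over the 4 libraries (vertical axis), by complex and library; points are genes, bars are medians, and the number of genes stands under each complex. In every complex the median of cKO 2, at 0.19 to 0.34, lies above those of WT 1, WT 2 and cKO 1.

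Without cKO 2, the median log2 fold change of the members was −0.04 and 30 of 89 lay above 0. Without cKO 1, it was 0.33, and 47 of 90 members tested were higher and 2 lower at an unadjusted p under 0.05 in edgeR's fit of the remaining 3 libraries, where 5.08% of all genes tested were called higher and 9.95% lower and 0 members passed the adjusted threshold, as against 105 genes (0.621%) of all tested. Each fit without a library leaves 1 library in its group, which is assumed to vary as those of the other group do. The median was 0.13 without WT 1 and 0.18 without WT 2. Markers of neural progenitors, led by Vim, summed to 2781, 2635, 2800 and 2701 CPM in the order WT 1, WT 2, cKO 1, cKO 2, and those of intermediate progenitors, led by Neurog2, to 655, 660.0, 729 and 691 CPM. Those of blood, led by Hbb-y, summed to 1093, 585, 475 and 715 CPM, those of endothelium, led by Kdr, to 175, 129, 113 and 112, those of microglia, led by Csf1r, to 29.1, 20.9, 17.7 and 20.8, and those of ventral telencephalon, led by Dlx1, to 928, 879, 580.3 and 913 CPM. By summed level cKO 2 was the highest library in none of these lists, and of all marker lists given here it was the lowest for neurons, endothelium and meninges and mesenchyme. By the median log2 deviation used for the members, cKO 2 was the highest library for ventral telencephalon (0.26, beside 0.12 for WT 1, 0.12 for WT 2 and −0.49 for cKO 1), neural progenitors (0.077, beside 0.063, −0.081 and 0.023) and intermediate progenitors (0.020, beside −0.030, −0.035 and 0.016). For cortical neurons it was the lowest (−0.24, beside −0.09, 0.15 and 0.16), with 5 of 8 markers lowest and 2 highest in cKO 2. Tubb3, a neuronal tubulin, was among the 2, with 1786, 2039.5, 1698 and 2246 CPM, and Dcx, a microtubule-binding protein of migrating neurons that was chosen after its values were seen, was among the 5, with 864, 1107, 1084 and 517 CPM. The part of these cell types in the result was not tested. In a bulk sample, more cells with a high level and more RNA per cell cannot be told apart.

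**Figure D3:**
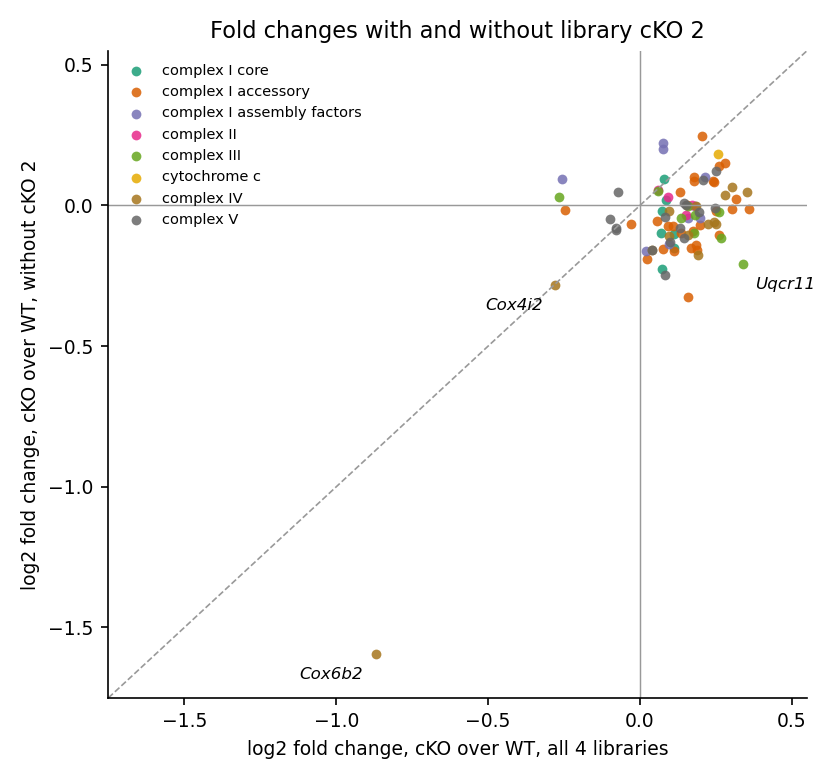
Log2 fold change of cKO over WT for the 89 tested genes with all 4 libraries (horizontal axis) and without cKO 2 (vertical axis), coloured by complex; the dashed line marks equal values. With all libraries 79 genes lie above 0, without cKO 2 only 30 do, and Cox6b2 lies far below the others at −0.87 and −1.59.

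Among the core subunits of complex I, the shift in cKO 2 was small. Ndufv1, which binds the flavin that takes electrons from NADH, had 105 CPM (WT 1), 112 (WT 2), 106 (cKO 1) and 120.3 (cKO 2). Ndufs1, the largest iron-sulfur subunit, had 67.2 CPM (WT 1), 74.5 (WT 2), 75.1 (cKO 1) and 73.7 (cKO 2), and was the core subunit that cKO 2 did not lead. The log2 fold changes were 0.07 for Ndufv1 (SE 0.15) and 0.08 for Ndufs1 (SE 0.15), and the groups overlapped for both genes. Over the 7 core subunits the log2 fold change ran from 0.07 to 0.11.

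The 29 accessory subunits of complex I, which surround the core and stabilize it, stood further out in cKO 2, the highest library for 27 of them. Ndufa13, also known as GRIM-19, had 42.7 CPM (WT 1), 43.1 (WT 2), 42.2 (cKO 1) and 67.0 (cKO 2). Its first 3 libraries lay within 1 CPM of each other, so its log2 fold change of 0.36 (SE 0.23, unadjusted p = 0.159 from edgeR), the largest of all members, came from cKO 2, and without that library it was −0.01. Exons of other annotated genes cover 29.98% of the exon bases of Ndufa13. Both X-linked members of complex I were also highest in cKO 2, with 61.7, 53.6, 54.5 and 76.6 CPM for Ndufb11 and 16.8, 16.7, 13.3 and 23.8 CPM for Ndufa1 in the order WT 1, WT 2, cKO 1, cKO 2. Ndufa11, a membrane arm subunit shown above for its promoter and chosen after its values were seen, had 46.4, 51.0, 45.0 and 70.8 CPM.

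Ndufb2, on chromosome 6 from 39592574 to 39603382, was lowest in cKO 2, with 10.98 CPM (WT 1), 9.71 (WT 2), 10.1 (cKO 1) and 7.19 (cKO 2). The assembly factor Ndufaf4, on chromosome 4 from 24898083 to 24905001 and chosen after its values were seen, had 30.04, 22.8, 28.0 and 15.97 CPM, which put cKO 2 at 0.602 of the mean of the other libraries, the lowest ratio of all tested members. Their log2 fold changes were −0.25 (SE 0.26) and −0.26 (SE 0.28), smaller than their errors. Ndufaf4 carries the NRF1 letters in its promoter just as Ndufa11 does. Over the 13 genes with these letters, 11 were highest in cKO 2 and the median log2 fold change was 0.18, and over the other 62 tested genes with a promoter window, 55 were highest in cKO 2 and the median was 0.15.

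Complex II, the only complex with no mitochondrially encoded subunit, also oxidizes succinate in the tricarboxylic acid cycle. Sdha, its flavoprotein, had 189 CPM (WT 1), 197 (WT 2), 199 (cKO 1) and 201 (cKO 2), the most even levels of the complex. Sdhb, the iron-sulfur subunit, had 111, 109.9, 107 and 137 CPM. The groups did not overlap for Sdha, although its log2 fold change was only 0.06 (SE 0.14), and they overlapped for Sdhb (0.15, SE 0.17). Sdhc and Sdhd had log2 fold changes of 0.17 and 0.09, which were 0.00055 and 0.029 without cKO 2 and 0.33 and 0.17 without cKO 1.

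In complex III, cKO 2 was the highest library for 8 of 9 genes. Uqcrc1, a core protein of the complex, had 172 CPM (WT 1), 201 (WT 2), 181 (cKO 1) and 239.8 (cKO 2). Cyc1, the cytochrome c1 that passes electrons on, had 136, 149, 132 and 188 CPM, and Uqcrfs1 had 116, 119.5, 117 and 145 CPM. The groups overlapped for all 3, with log2 fold changes of 0.18 (SE 0.19), 0.18 (SE 0.20) and 0.16 (SE 0.16). Uqcr11, the smallest subunit, was the tested member farthest above the others in cKO 2, with 31.8 CPM (WT 1), 30.3 (WT 2), 26.6 (cKO 1) and 51.2 (cKO 2). In that library it stood 75.6% above the mean of the others, and its log2 fold change of 0.34 (SE 0.29) turned to −0.21 without it.

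Uqcrb, a quinone-binding subunit on chromosome 13 from 66900617 to 66905378, was the exception in complex III. Its level was 23.4 CPM (WT 1), 19.3 (WT 2), 21.5 (cKO 1) and 13.7 (cKO 2), so that cKO 2 stood at 0.651 of the mean of the other libraries. The log2 fold change was −0.27 (SE 0.25, unadjusted p = 0.321 from edgeR), and without cKO 2 it was 0.03. Uqcrb and Uqcr11, subunits of the same complex, thus lay near opposite ends of the members in the same library. The GC content of the longest transcript was 40.4% for Uqcrb and 59.8% for Uqcr11, and its part in this contrast was not tested.

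Cytochrome c, the mobile electron carrier between complexes III and IV, is encoded by Cycs, which had 70.2 CPM (WT 1), 72.4 (WT 2), 80.2 (cKO 1) and 88.8 (cKO 2). Both cKO libraries lay above both WT libraries, and the gap between the groups was wider than that between the WT libraries. The log2 fold change was 0.26 (SE 0.15, unadjusted p = 0.125 from edgeR, adjusted p = 0.9999), and it was 0.18 without cKO 2 and thus did not rest on that library alone. Cycs lies on chromosome 6 from 50562563 to 50566538.

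In complex IV the median deviation of cKO 2, 0.34, was the largest of all complexes. Summed over its 15 genes, complex IV had 1220 CPM (WT 1), 1215 (WT 2), 1162 (cKO 1) and 1608 (cKO 2). Cox8a had 115, 122, 122 and 178 CPM in this order, and its log2 fold change of 0.35 (SE 0.20) became 0.05 without cKO 2. Cox6a1 had 128 CPM (WT 1), 164 (WT 2), 139 (cKO 1) and 206 (cKO 2), so here WT 2 and cKO 2 both stood above the others. Cox4i1, the regulatory subunit that binds ATP, had 114, 108, 110.1 and 140.3 CPM, and Cox5a 61.0, 61.2, 57.9 and 83.7 CPM. In Cox4i1 and Cox5a the first 3 libraries were nearly level and cKO 2 stood above them.

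The X-linked Cox7b had 70.4 CPM (WT 1), 66.6 (WT 2), 71.1 (cKO 1) and 96.6 (cKO 2), with a log2 fold change of 0.30 (SE 0.18) that was 0.064 without cKO 2 and 0.52 without cKO 1. Its groups did not overlap, but cKO 1 exceeded WT 1 by less than the WT libraries differed between themselves. Cox6b1 had 107, 99.98, 90.9 and 143 CPM, Cox7a2 59.7, 61.5, 55.9 and 78.2 CPM, and Cox7a2l 151, 148, 133 and 172 CPM in the order WT 1, WT 2, cKO 1, cKO 2. Each was lowest in cKO 1 and highest in cKO 2.

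The rare isoforms of complex IV did not share this order. Cox6b2, on chromosome 7 from 4751792 to 4753094, had 103 counts (WT 1), 39 (WT 2), 24 (cKO 1) and 55 (cKO 2). These are 5.99, 2.10, 1.32 and 3.04 CPM. WT 1 stood far above the other libraries, as it did for the choroid plexus and mesenchyme markers, whose part in this value was not tested, and cKO 2 lay above WT 2. The log2 fold change was −0.87 (SE 0.58, unadjusted p = 0.171 from edgeR), the lowest of all members. It was 0.05 without WT 1, −1.42 without WT 2, a fit in which the outlying WT 1 stands alone for its group and the cKO libraries alone give the spread, and −1.59 without cKO 2 (unadjusted p = 0.0429, adjusted p = 0.9994 from edgeR), and in the fits without WT 2 and without cKO 2 it was the only member called at the study's thresholds, where 2.44% and 0.589% of all genes tested were called lower. Cox4i2 had 29, 14, 18 and 18 counts, again highest in WT 1, with a log2 fold change of −0.28 (SE 0.52) that became 0.39 without WT 1. Cox7a1, with 4, 5, 6 and 13 counts, was too low to be tested.

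Complex V carried the largest share of the counts on these genes. Its 16 genes summed to 3296 CPM (WT 1), 3339 (WT 2), 3249 (cKO 1) and 3881 (cKO 2). Atp5b had 1111 CPM (WT 1), 1162 (WT 2), 1130 (cKO 1) and 1380 (cKO 2), and Atp5a1 735, 772, 727 and 856 CPM. The log2 fold changes of these catalytic subunits were 0.15 (SE 0.18) and 0.08 (SE 0.17), and their groups overlapped. For Atp5b the value was 0.0027 without cKO 2 and 0.30 without cKO 1.

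For the proteolipid genes, Atp5g1 had 66.2 CPM (WT 1), 71.5 (WT 2), 68.0 (cKO 1) and 94.2 (cKO 2). Atp5g2 had 128, 115, 114 and 150.1 CPM, and Atp5g3 145, 145, 129 and 167 CPM. The 3 genes thus agreed in placing cKO 2 highest, by 39.4%, 28.2% and 21.2% over the mean of the other libraries. Atp5f1, a stalk subunit chosen after its values were seen, was lowest in cKO 2, with 257, 232, 251 and 211 CPM. Atp5l had 15.9, 11.9, 13.1 and 13.1 CPM and showed neither a high nor a low cKO 2.

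In all, 6 of the 89 tested members were lowest in cKO 2, namely Ndufb2, Ndufaf1, Ndufaf4, Uqcrb, Atp5f1 and Atp5s, which makes 6.74% against 33.3% of all genes tested. The GC content of their longest transcripts was 43.7%, 46.3%, 39.5%, 40.4%, 37.0% and 40.2% in this order. All lay below the members' median of 50%. Cycs, at 40.8%, and Cox5a, at 41.6%, were nonetheless highest in cKO 2.

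The 90 genes together took 0.787% of all counts (WT 1, 95% exact Clopper-Pearson interval 0.782 to 0.791), 0.799% (WT 2, 0.795 to 0.803), 0.773% (cKO 1, 0.769 to 0.777) and 0.960% (cKO 2, 0.956 to 0.965). These intervals cover counting error only. With mitochondrial and globin counts left out of the totals, the shares were 0.806%, 0.813%, 0.789% and 0.971% in the same order. The partner subunits encoded by mitochondrial DNA, 12 of 13 of which were in the table (mt-Atp8 was not analysed here), took 2.19%, 1.57%, 1.91% and 0.969% in the same order. The ratio of mitochondrially to nuclear-encoded counts was 2.78 (WT 1), 1.96 (WT 2), 2.48 (cKO 1) and 1.01 (cKO 2), so cKO 2 combined the highest nuclear with the lowest mitochondrial share.

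**Figure D4:**
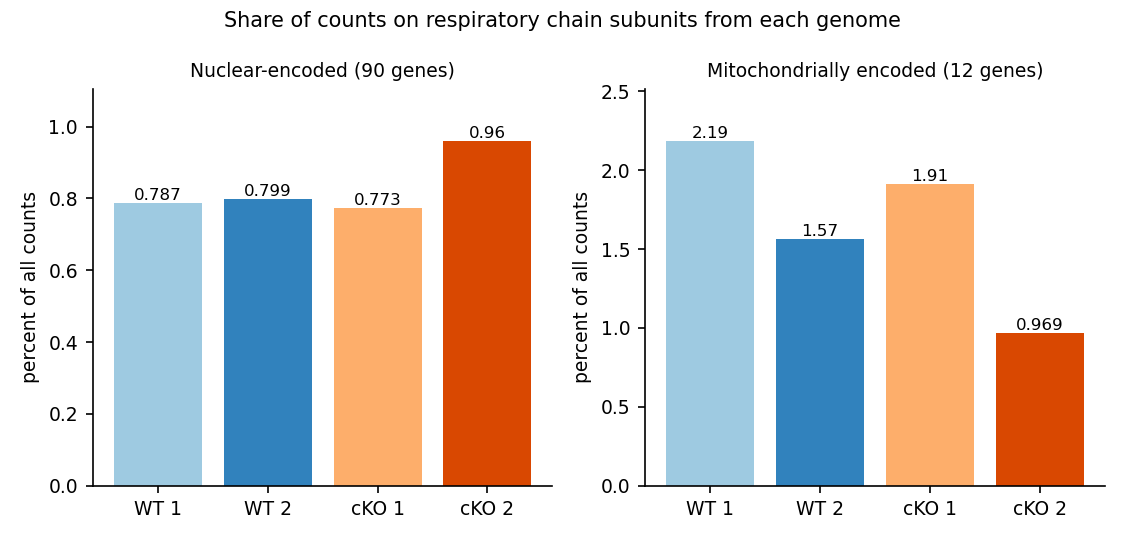
Percent of all counts in each library that fall on the 90 nuclear-encoded genes (left) and on the 12 mitochondrially encoded subunits (right), with bars from 0. The nuclear share is highest in cKO 2 at 0.960% and the mitochondrial share lowest there at 0.969%.

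All 12 mitochondrially encoded subunits were highest in WT 1 and lowest in cKO 2. mt-Co1, the catalytic subunit of complex IV, had 8098 CPM (WT 1), 6416 (WT 2), 7855 (cKO 1) and 4182 (cKO 2). mt-Cytb, the cytochrome b of complex III, had 4779, 3767, 4227 and 2136 CPM. The widest range among the 4 libraries in well-counted genes was that of mt-Nd6, a complex I subunit and the only one of these genes on the light strand of the mitochondrial genome, with 446, 113, 238 and 13.2 CPM. mt-Nd3 had 0 counts in cKO 2, which allows up to 0.166 CPM. None was called by edgeR at any of the thresholds, and the median log2 fold change was −0.45 with all libraries. It was 0.0069 without cKO 2 and −0.055 without WT 1, and −1.04 without cKO 1 and −0.77 without WT 2, so it rested on WT 1 as well as on cKO 2. The low levels of mt-Nd3, mt-Nd4l, mt-Co2, mt-Co3 and mt-Atp6, each under 40 CPM in every library, stand beside the far higher counts of mt-Co1, and whether reads with a copy in the nuclear genome were left out was not tested.

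Other gene families were compared to see whether the high values in cKO 2 were particular to the respiratory chain. Cytoplasmic ribosomal proteins, led by Rplp0, had a median log2 fold change of 0.17, and 76 of 77 tested were highest in cKO 2. Without cKO 2 their median was −0.029, with 22 of 77 above 0, and without cKO 1 it was 0.38. Of the mitochondrial ribosomal proteins, 61 of 77 were highest in cKO 2, with a median of 0.14 that was 0.039 without cKO 2 and 0.26 without cKO 1. The high values were therefore not restricted to the members. Enzymes of the tricarboxylic acid cycle, which feed the chain with NADH and succinate, had a median of 0.07 (0.020 without cKO 2 and 0.11 without cKO 1) with 9 of 17 highest in cKO 2, and their most abundant gene by counts, the citrate synthase Cs, had 357, 359, 360.1 and 375 CPM. Glycolytic enzymes had a median of −0.12, and 11 of 17 were highest in WT 1. This direction turned without WT 1, where the median was 0.15 with 14 of 17 above 0, and without cKO 1, where it was 0.038, while it was −0.21 without cKO 2. Pkm, a pyruvate kinase and the most abundant of these, had 1559, 1212, 1229 and 1491 CPM.

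Genes that regulate mitochondrial biogenesis did not share the order of the members. Of 17 regulators of mitochondrial biogenesis, 10 were highest in cKO 1 and 2 in cKO 2, with a median log2 fold change of 0.03 (0.080 without cKO 2 and −0.0043 without WT 1), and Yy1, the most abundant, had 145, 143, 136 and 117 CPM. Assembly factors of complex IV had a median of 0.06 with 15 of 21 above 0 and 12 highest in cKO 2 (Coa5 most abundant). Further complex I assembly factors had 0.07, with 8 of 8 above 0 and 5 highest in cKO 2 (Foxred1 most abundant), and those of complexes II, III and V had 0.08, with 12 of 14 above 0 and 8 highest in cKO 2 (Uqcc1 most abundant). In these 3 lists of assembly factors, cKO 2 was the highest library for 57.1%, 62.5% and 57.1%, against 33.6% of all genes tested. Without cKO 2 the medians of the 3 lists were −0.0087 with 8 of 21 above 0, 0.094 with 7 of 8, and 0.051 with 10 of 14. Over the fits without 1 library they ran from −0.0087 to 0.15, 0.066 to 0.14 and 0.051 to 0.14. Subunits listed under other symbols had a median of −0.03 (6 tested, 2010107E04Rik most abundant), which ran from −0.16 without WT 2 to 0.097 without cKO 1. None of these genes, nor any of the ribosomal, cycle or glycolytic genes, was called at the study's thresholds or at an unadjusted p under 0.05 in edgeR.

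Gene length and base composition moved with the pattern. The tested members had a median summed exon length of 1789 bases against 4140 over all genes tested, and 62 of the 89 lay in the shortest of 4 equal classes of length. In that class the median gene had a log2 deviation of 0.11 in cKO 2 and 46.0% of genes were highest there. In the longest class, which held 2 members, these values were −0.12 and 16.0%. Across the 16120 genes with a length, the deviation in cKO 2 had a Spearman's rho of −0.33 with length and 0.60 with the GC content of the longest transcript, while the deviation in cKO 1 had 0.24 and −0.54. Genes are not independent replicates, so these are descriptions. Among the members rho was −0.45 with length and 0.44 with GC content, although their median GC content of 50% was close to the 49.6% of all genes tested.

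**Figure D5:**
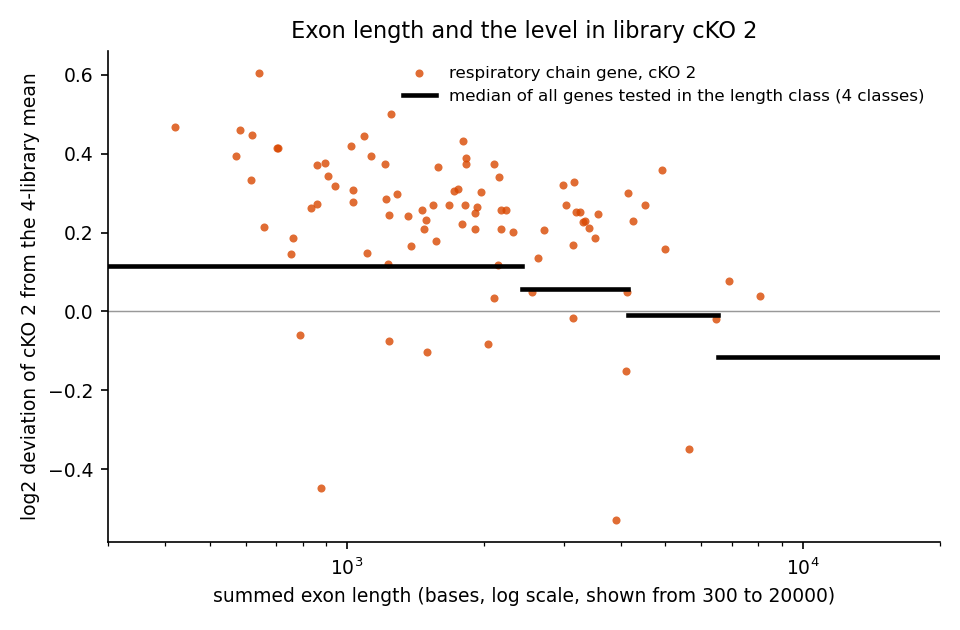
Log2 deviation of library cKO 2 from the 4-library mean (vertical axis) against summed exon length (horizontal axis, log scale) for the 89 tested genes (points), with the median of all genes tested in each of 4 classes of length (bars). Most points lie above the bar of their class, and the bars fall from 0.11 in the shortest to −0.12 in the longest class.

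When each library was corrected for exon length, the median deviation of the members in cKO 2 went from 0.26 to 0.20, and when corrected for GC content it was 0.23. In the matching edgeR fits the median log2 fold change was 0.12 and 0.17, with 78 and 83 of 89 members above 0. No member was called at the study's thresholds in either fit. Both corrections together were not tested. RNA integrity values were not among the sources used here, and their part was not tested.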

How the data were processed

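Total RNA was extracted and sequenced on an Illumina HiSeq instrument, and per the labels Bowtie2 2.2.3, TopHat2 2.0.12 and HTSeq 0.6.0 were used with build mm9. The positions in the deposited table match GENCODE M21 (GRCm38) within 1 base for 97.2% of 27232 genes and were read as GRCm38. The authors deposited raw read counts per gene for 4 libraries, from which 11 blank rows (0.0403%) were left out. Strand and the handling of reads with several alignments are not stated, and 30 members share exon bases with another gene. Deposited fold changes, p-values, adjusted p-values and normalized values hold the authors' own comparison and were not used. A second deposited table of cKO 1 and WT 1 served for the markers Ttr and Clic6, the latter with 526 counts in WT 1 and 2 in cKO 1. It was also compared with the first, and all 21342 genes in both were identical.

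Counts entered the quasi-likelihood test of edgeR 4.0.16 (R 4.3.3) with TMM factors, the filterByExpr filter, no covariate and Benjamini-Hochberg adjustment over 16145 genes, with DESeq2 1.42.0 as an alternative. The procedure was also run on simulated counts. Deviations used log2 of normalized CPM with a pseudocount of 0.5. The intervals came from scipy 1.17.1. Other normalizations, filters, a replicate block, length and GC offsets and fits without each library were tried. Members, lists and tests were chosen with earlier results of these data known. Genes were named by rule: defining subunits, isoform families, X-linked members, the extremes of level and fold change, and the most abundant gene of each list. Ndufaf4, Ndufa11, Ndufa6, Atp5f1, Dcx and the genes of short lists were added later, and 1 gene named by the rule is not reported here. The ribosomal lists, GC offsets and coding transcript lengths were added after the data were seen.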

Additional observations from a re-analysis of the deposited data

How the results depend on the processing

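Limits are 2 libraries a group, a depth of 17209654 to 18533391 counts, and cKO 2, without which the members' direction turned. RLE and upper-quartile factors, DESeq2, both filters and the replicate block each called 0 members at the study's thresholds and at an adjusted p under 0.05, and kept the members' median log2 fold change between 0.14 and 0.16. With no filter, 405 genes passed the study's thresholds, 65 had an adjusted p under 0.05, and 758 genes had an unadjusted p under 0.05, among the last 2 members (Cox6b2 and Cox8a). With at least 10 counts in every library 72 genes passed the study's thresholds, and with DESeq2 65 did, with 127 at an unadjusted p under 0.05. GC offsets gave 321 genes and 1 member (Cox8a) at an unadjusted p under 0.05, and log2 fold changes of 0.28 for Atp5f1 and 0.18 for Atp5l, which was 0.00073 with length offsets. With coding transcript lengths the members' median level was 78.0 CPM per kilobase.

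The replicate numbers were not taken as pairs, since only the number is shared and the within-genotype differences of the numbers correlated at 0.10 over 16145 genes. With the replicate block, 208 genes passed the study's thresholds, 5 genes had an adjusted p under 0.05, 535 had an unadjusted p under 0.05, and the members' median was 0.14 with 79 above 0.

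Leaving out 1 library at a time gave 104 to 531 genes at the study's thresholds, 0 to 116 at an adjusted and 126 to 2542 at an unadjusted p under 0.05. For the members the calls were 0 to 1 and 0 to 49, the number above 0 was 30 to 79, the median −0.040 to 0.33, and the difference in summed share, cKO minus WT, −0.020 to 0.167 percentage points. Medians ran from −0.10 to 0.23 (complex I core), −0.056 to 0.38 (accessory), −0.0033 to 0.31 (assembly), −0.033 to 0.38 (III), −0.066 to 0.48 (IV, the highest with Cox7a1, which passed the filter without cKO 1, and 0.43 without that gene) and −0.044 to 0.30 (V). Single log2 fold changes ran from −0.0042 to 0.18 (Ndufs1), −0.018 to 0.17 (Ndufv1), −0.33 to 0.53 (Ndufa1), −0.10 to 0.56 (Ndufa11), −0.011 to 0.67 (Ndufa13), −0.069 to 0.43 (Ndufb11), −0.70 to 0.10 (Ndufaf4), −0.033 to 0.33 (Sdhb), −0.033 to 0.38 (Uqcrc1), −0.0035 to 0.32 (Uqcrfs1), −0.10 to 0.42 (Cyc1), −0.21 to 0.74 (Uqcr11), −0.61 to 0.029 (Uqcrb), −0.0014 to 0.36 (Cox4i1), −0.73 to 0.39 (Cox4i2), −0.066 to 0.48 (Cox5a), −0.067 to 0.52 (Cox6a1), −0.17 to 0.49 (Cox6b1), −1.59 to 0.049 (Cox6b2), −0.10 to 0.39 (Cox7a2), −0.16 to 0.23 (Cox7a2l), −0.040 to 0.21 (Atp5a1), −0.19 to 0.049 (Atp5f1), −0.0085 to 0.47 (Atp5g1), −0.080 to 0.33 (Atp5g2), −0.16 to 0.22 (Atp5g3) and −0.25 to 0.13 (Atp5l). The causes were not tested. Over 35 named genes and 12 settings, 30 of 420 values turned sign, 23 of them without cKO 2.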
